A study of Agaricus bisporus with 16 samples.

Results

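In the button mushroom, Agaricus bisporus, 159 genes went in opposite directions in different strains when the first flush was set against pinning: their level was higher on the later day by at least 1 on the log2 scale in some strain and lower by at least 1 in another. They were taken from the 9520 genes that stand in every file, of which 7616 reached a mean of 10 FPKM in some group. For each strain the day change d was the log2 of the mean day 39 FPKM + 1 minus the log2 of the mean day 27 FPKM + 1. A gene was kept with d of 1 or more in some strain, d of -1 or less in another and a mean of at least 10 FPKM in some group, and below it is called rising or falling in a strain by these limits alone. The heat shock gene hspB (AGABI2DRAFT_133986) meets both limits and was set aside by the rule. Every day change below therefore describes how the genes were chosen and carries no test.

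The libraries came from compost grown through by mycelium of 4 strains, 219 30P, 245 AMA-7, 065 BP-8 and the commercial strain A15. Samples were taken on day 39, during the first flush, and on day 27, at pinning, counted from the addition of spawn, with 2 libraries per strain and day and 16 libraries in all. All strains shared the same kind of compost, based on wheat straw with horse and chicken manure, and all crates received a casing layer. The labels name no genetic change and no treatment for any strain. The labels speak of duplicate compost samples and do not tie them to crates; the p-values below reflect the spread among these samples alone, and that spread may be technical.

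A. bisporus lives on composted straw, which its hyphae digest outside the cell with secreted oxidases and hydrolases. At pinning, hyphae in the casing layer knot into primordia, and at the first flush mushrooms draw on the nutrients that the compost mycelium supplies. Laccases are copper-containing oxidases of phenolic compounds that this fungus secretes while it colonises compost. In such bulk samples, fewer hyphae of a kind and less RNA per hypha cannot be told apart. No markers that would separate mycelium from mushroom tissue carry a name in the reference table, so the sample type was not checked here.

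The values were read as FPKM, a unit inferred from the numbers. FPKM is a read count set relative to transcript length and to the size of the library. The values summed to between 832823 and 913010 per library. By the steps between low values a single read in 1 kilobase came to 0.1175 to 0.1325 FPKM. A library had 8488 to 8797 genes at or above 1 FPKM. The day 27 duplicates of 065 BP-8 stood apart: 11.4% of the genes that reached 10 FPKM differed over 1.5-fold between them, against 1.89% to 4.94% in the other groups. Among the opposed genes 49.1% did so, against 7.55% to 24.5% in the other groups. The median day change of all tested genes was -0.07 in 219 30P, 0.16 in 245 AMA-7, 0.07 in 065 BP-8 and 0.24 in A15. Scaling the libraries by their median ratio brought each of these to within 0.01 of 0.

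The 159 genes make up 2.09% of the genes that reached 10 FPKM. The opposed changes fell into 11 combinations of rising strains. Only 219 30P rose in 42 genes, only A15 in 29, only 065 BP-8 in 24 and only 245 AMA-7 in 16. In 10 genes 219 30P and 245 AMA-7 rose, in 9 genes 245 AMA-7 and A15, and in another 9 genes 219 30P and 065 BP-8. The remaining combinations were 219 30P with 065 BP-8 and A15 (7 genes), 065 BP-8 with A15 (5 genes), 245 AMA-7 with 065 BP-8 (5 genes) and 219 30P with A15 (3 genes). In 74 genes a single strain rose and a single strain fell, in 72 genes 3 strains passed a limit and in 13 genes all 4 did. The distance between the highest and the lowest d of a gene had a median of 3.28 and ran from 2.07 to 8.56 on the log2 scale.

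**Figure D1:**
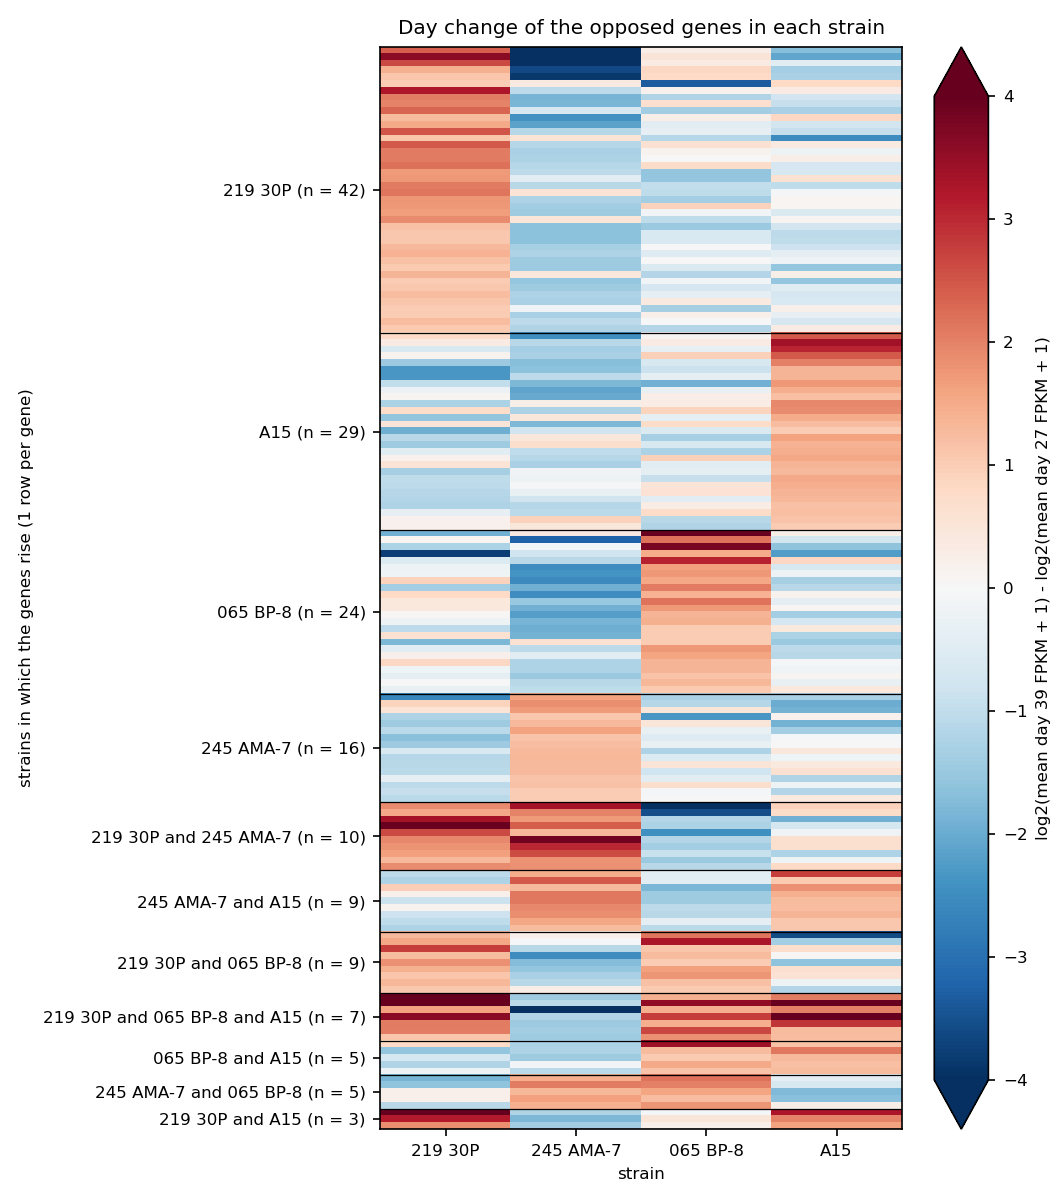
Day change of the 159 genes in each strain, as the log2 of the mean day 39 FPKM + 1 minus that of day 27, with 1 row per gene and red for a rise. Rows are grouped by the strains in which the gene rises, from 42 genes of 219 30P at the top to 3 genes of 219 30P and A15 at the bottom, and colours stop at 4 and -4.

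Of the 4 strains, 245 AMA-7 held the most falls among these genes, and 219 30P was its most frequent opposite. In 245 AMA-7 40 genes rose and 90 fell, where 15.9% and 10.1% of all genes that reached 10 FPKM passed the same limits. In 219 30P 71 rose and 40 fell, with 11.9% and 13.6% of all genes. In 065 BP-8 50 rose and 37 fell, with 15.1% and 10.8% of all genes. In A15 53 rose and 35 fell, with 18.1% and 6.68% of all genes. By pairs, 50 genes rose in 219 30P and fell in 245 AMA-7, 36 rose in 065 BP-8 and fell in 245 AMA-7, and 31 rose in A15 and fell in 245 AMA-7. Every other pair held 11 to 22 genes, and the reverse of the commonest pair, rising in 245 AMA-7 and falling in 219 30P, held 18. The balance moved with the scaling: the share of rises among the genes that passed in 219 30P was 64.0% on the deposited values, 78.1% after median-ratio scaling and 76.1% after quantile normalization. In A15 that share was 60.2%, 52.2% and 47.4%, whereas in 245 AMA-7 falls outnumbered rises under all 3 scalings.

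**Figure D2:**
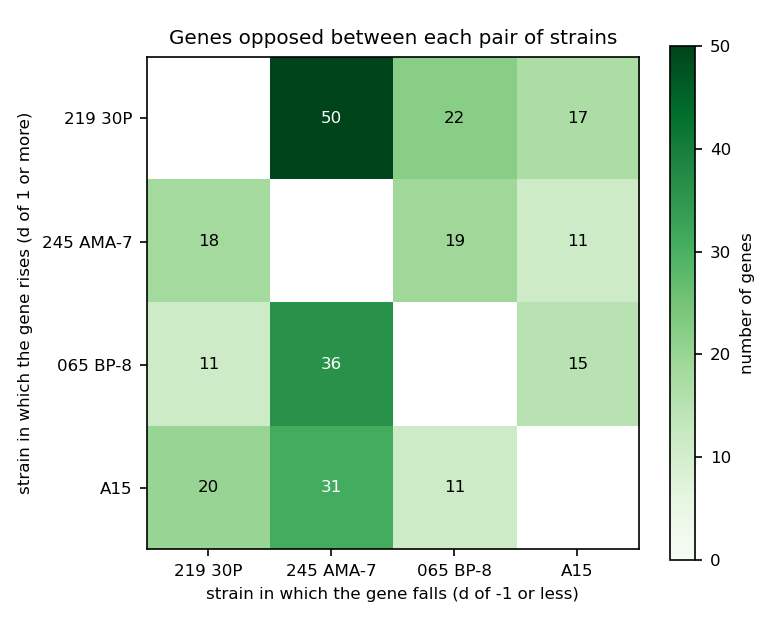
Number of genes rising in the strain of the row and falling in the strain of the column, with d of 1 or more and of -1 or less. The column of 245 AMA-7 holds the 3 highest numbers, 50, 36 and 31, and a gene can stand in several cells.

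The strain with the highest level also differed between the days. On day 39, 245 AMA-7 had the highest mean of the strains in 27 of the opposed genes (17.0%) and in 29.4% of all genes that reached 10 FPKM. On day 27 it had the highest mean in 63 (39.6%) and in 27.7% of all those genes. For 219 30P the mean was the highest in 53 (33.3%) on day 39, with 18.2% of all those genes, and in 25 (15.7%) on day 27, with 28.5%. These counts follow the falls in 245 AMA-7 and the rises in 219 30P that the rule selected, and are given as a description. The strain with the highest mean differed between the days in 85.5% of these genes and in 66.4% of all genes that reached 10 FPKM. The range across the strains had a median of 2.31 on day 39 and 2.07 on day 27 (log2), against 0.80 and 0.67 for all genes that reached 10 FPKM.

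Among genes rising in 219 30P alone, those with the widest changes were AGABI2DRAFT_188751, AGABI2DRAFT_194331 and AGABI2DRAFT_114324, none of which has a name or a described product in the reference table. In 245 AMA-7 AGABI2DRAFT_188751 had 32.5 and 34.5 FPKM on day 39, against 1679.6 and 1514 FPKM on day 27, a d of -5.53. In 219 30P it had 92.8 and 119 FPKM on day 39, against 13.5 and 24.9 FPKM on day 27 (d of 2.40), and in A15 101 and 143 FPKM on day 39, against 379.9 and 409.6 FPKM on day 27 (d of -1.69). The duplicates of the days did not overlap in any of these strains, and the strains lay far closer together on day 39 than on day 27. In 065 BP-8 it had 72.8 and 76.3 FPKM on day 39, against 34.00 and 88.9 FPKM on day 27, so that the days overlapped.

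The gene AGABI2DRAFT_194331 rose and fell in the same strains at higher levels, but the strains stayed far apart on day 39. It had 2685 and 2150.3 FPKM on day 39, against 155 and 235 FPKM on day 27 in 219 30P, a d of 3.62. It had 193 and 223 FPKM on day 39, against 3150.0 and 3553 FPKM on day 27 in 245 AMA-7 (d of -4.003) and 201 and 525 FPKM on day 39, against 1516 and 1566 FPKM on day 27 in A15 (d of -2.08). In A15 all day 39 values lay below all day 27 values, but the day 39 duplicates were far apart, and the d of -2.08 was -2.93 without replicate 2 and -1.55 without replicate 1 of that day. The third gene, AGABI2DRAFT_114324, had 38.3 and 44.4 FPKM on day 39, against 4.86 and 6.86 FPKM on day 27 in 219 30P (d of 2.63) and 13.3 and 14.00 FPKM on day 39, against 263 and 223 FPKM on day 27 in 245 AMA-7 (d of -4.06), while d was 0.33 in 065 BP-8 and -0.42 in A15. In the 50 genes that rose in 219 30P and fell in 245 AMA-7, A15 had a median d of -0.34, with 21 genes above 0 and 29 below. In 065 BP-8 the median was 0.22, with 31 above 0 and 17 below. Neither strain thus sided with the same partner throughout.

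Genes rising in 065 BP-8 alone reached high levels too. The gene AGABI2DRAFT_120027 had 2975 and 2588 FPKM on day 39, against 267 and 959 FPKM on day 27 in 065 BP-8, a d of 2.18, which was 1.54 without replicate 1 and 3.38 without replicate 2 of day 27. In 245 AMA-7 the same gene had 104 and 181 FPKM on day 39, against 1486 and 1206 FPKM on day 27 (d of -3.23). The day 27 duplicates of 065 BP-8 were far apart, yet both stayed below both day 39 values. The gene AGABI2DRAFT_191066 had 799 and 543 FPKM on day 39, against 30.1 and 47.7 FPKM on day 27 in 065 BP-8 (d of 4.08) and 36.9 and 50.2 FPKM on day 39, against 198 and 136 FPKM on day 27 in 219 30P (d of -1.92), with no overlap between the days in either strain. The third by width, AGABI2DRAFT_196225, had 32.8 and 31.1 FPKM on day 39, against 0.38 and 2.40 FPKM on day 27 in 065 BP-8 and 9.63 and 13.99 FPKM on day 39, against 35.04 and 41.03 FPKM on day 27 in A15, and its d was 3.78 in 065 BP-8 and -1.61 in A15. At higher levels, AGABI2DRAFT_194026 fell in 245 AMA-7 (d of -2.19) and A15 (d of -1.35) and rose in 065 BP-8, where it had 2837 and 2384 FPKM on day 39, against 696 and 1346 FPKM on day 27. Its d of 1.35 there was 0.96 without replicate 1 of day 27, which takes it just under the limit.

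Genes rising in A15 alone had a median highest group mean of 28.4 FPKM, and those rising in 245 AMA-7 alone one of 36.0 FPKM. It was 131.6 FPKM for those rising in 219 30P alone and 158.4 FPKM for those rising in 065 BP-8 alone. The gene AGABI2DRAFT_193648 had 3.15 and 3.07 FPKM on day 39, against 23.1 and 20.01 FPKM on day 27 in 245 AMA-7 (d of -2.46) and 44.2 and 55.96 FPKM on day 39, against 7.23 and 9.62 FPKM on day 27 in A15 (d of 2.44), with no overlap between the days. In 245 AMA-7 AGABI2DRAFT_114778 had 19.2 and 14.00 FPKM on day 39, against 38.5 and 35.1 FPKM on day 27, and the d of -1.10 was -0.91 without replicate 2 of day 39. In A15 it had 78.8 and 108 FPKM on day 39, against 8.38 and 8.21 FPKM on day 27 (d of 3.35). The gene AGABI2DRAFT_188345 stood at or below 3.79 FPKM in each library of the other strains and had 25.96 and 30.7 FPKM on day 39, against 2.66 and 2.39 FPKM on day 27 in A15. Its d of -1.37 in 245 AMA-7 came from 0.65 and 0.58 FPKM on day 39, against 2.57 and 3.79 FPKM on day 27, a few FPKM in all.

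Among the 16 genes rising in 245 AMA-7 alone, AGABI2DRAFT_73076 fell in the other 3 strains. It had 22.02 and 17.9 FPKM on day 39, against 6.99 and 4.65 FPKM on day 27 in 245 AMA-7 (d of 1.62) and 2.82 and 1.43 FPKM on day 39, against 19.97 and 16.4 FPKM on day 27 in 219 30P (d of -2.62). Its d was -1.28 in 065 BP-8 and -1.30 in A15, and the days did not overlap in any strain. The value of 065 BP-8 was -0.75 without replicate 1 of day 27 and -0.91 without replicate 1 of day 39. The mirror image, a fall in 245 AMA-7 and rises in the other 3 strains, held 7 genes. In the most abundant of them, AGABI2DRAFT_196181, 245 AMA-7 had 124 and 134 FPKM on day 39, against 299.6 and 246 FPKM on day 27; the days were apart, but the d of -1.07 was -0.93 without replicate 1 of day 27, just short of the limit. In A15 it had 3335 and 2602 FPKM on day 39, against 70.01 and 95.5 FPKM on day 27 (d of 5.15), and d was 4.04 in 219 30P and 3.54 in 065 BP-8. On day 27 the library of any strain with the highest value was replicate 1 of 245 AMA-7, whereas on day 39 245 AMA-7 was below every library of the other strains. The gene AGABI2DRAFT_194321 fell further, with 2.02 and 2.21 FPKM on day 39, against 60.1 and 43.1 FPKM on day 27 in 245 AMA-7 (d of -4.08) and d of 1.61, 1.43 and 2.02 in 219 30P, 065 BP-8 and A15. The value of 065 BP-8 was 0.88 without replicate 1 and 2.34 without replicate 2 of day 27. The widest of the 7, AGABI2DRAFT_183761, had 228 and 212 FPKM on day 39, against 2.05 and 4.16 FPKM on day 27 in 219 30P (d of 5.75). In 245 AMA-7 its days overlapped, with 6.64 and 4.13 FPKM on day 39, against 26.3 and 6.23 FPKM on day 27, and the d of -1.44 was -0.18 without replicate 1 of day 27, which takes it off the list. Its d of 2.04 in A15 was -0.43 without replicate 2 of day 39, and that of 1.41 in 065 BP-8 was 0.99 without replicate 1 of day 27.

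In 4 genes a pair of strains rose and the other pair fell, and they are named here after their values were seen. In AGABI2DRAFT_185281, 219 30P and 065 BP-8 rose and 245 AMA-7 and A15 fell. In 219 30P it had 427 and 343 FPKM on day 39, against 99.9 and 114 FPKM on day 27, and in 065 BP-8 48.2 and 46.7 FPKM on day 39, against 17.1 and 28.4 FPKM on day 27. In 245 AMA-7 it had 28.96 and 31.4 FPKM on day 39, against 118 and 86.1 FPKM on day 27, and in A15 35.6 and 51.6 FPKM on day 39, against 137 and 132 FPKM on day 27. The days did not overlap in any strain, although the d of 1.03 in 065 BP-8 was 0.72 without replicate 1 of day 27. The split of the strains is that of hspB, whose d was 1.45 in 219 30P, 1.54 in 065 BP-8, -1.74 in 245 AMA-7 and -1.13 in A15. The opposite split held for the gene with identifier 114703, which has no entry in the reference table. In 245 AMA-7 it had 289.6 and 282 FPKM on day 39, against 118 and 119 FPKM on day 27, and in 219 30P 104 and 83.4 FPKM on day 39, against 224 and 225 FPKM on day 27. In 065 BP-8 it had 184 and 211 FPKM on day 39, against 434 and 397 FPKM on day 27, and in A15 281 and 229 FPKM on day 39, against 131 and 109 FPKM on day 27, again with no overlap. Its d was -1.07 in 065 BP-8 (-0.97 without replicate 1 of day 39) and 1.08 in A15 (0.92 without replicate 1 of day 39 and 0.95 without replicate 2 of day 27). The other two were AGABI2DRAFT_65431, rising in 219 30P and 245 AMA-7, and AGABI2DRAFT_122979, rising in 065 BP-8 and A15. In 065 BP-8 AGABI2DRAFT_65431 had 129 and 142 FPKM on day 39, against 554 and 53.8 FPKM on day 27, and the d of -1.16 was 1.32 without replicate 1 of day 27. In A15 its d of -1.94 was 0.61 without replicate 2 of day 27. In AGABI2DRAFT_122979 the d of -1.57 in 219 30P, -1.24 in 245 AMA-7 and 1.25 in 065 BP-8 was -0.76, -0.59 and 0.67 without replicate 1 of day 27 of the same strain.

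**Figure D3:**
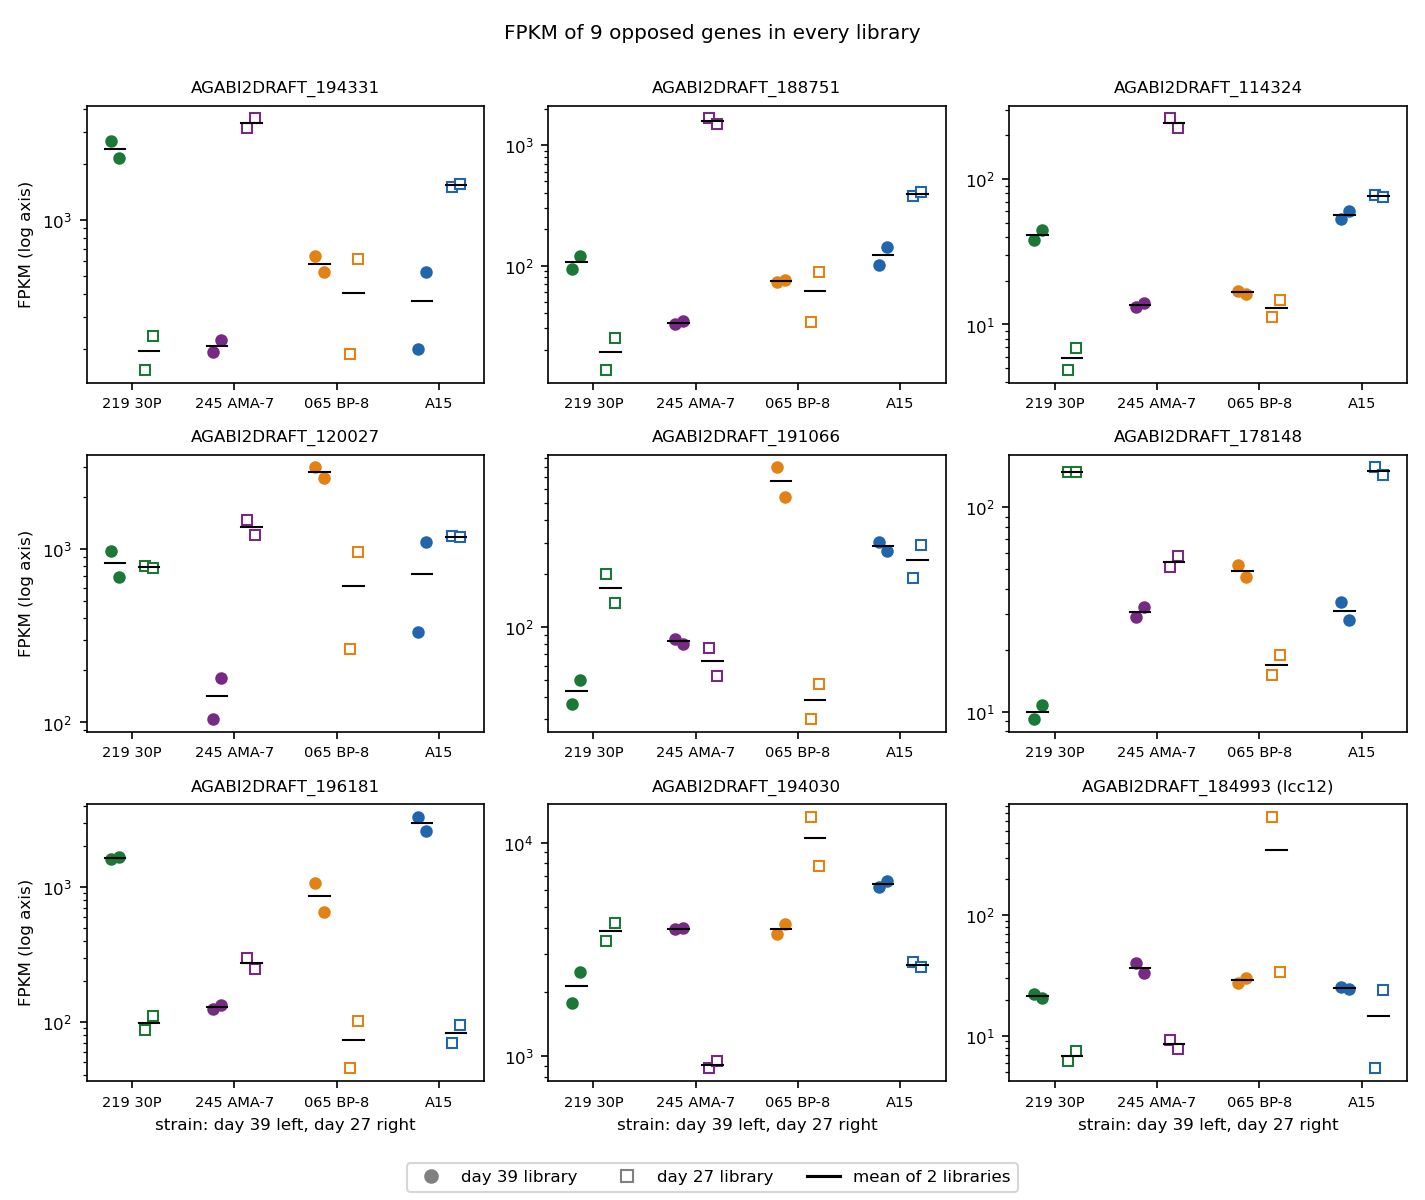
FPKM (log axis) of 9 of the genes in every library, with filled circles for day 39 left of open squares for day 27 in each strain and a line at the mean of 2 libraries. In the top row 219 30P and 245 AMA-7 cross, and in lcc12 the mean of 065 BP-8 on day 27 lies between 658 and 33.6 FPKM.

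The gene with the highest level of all, AGABI2DRAFT_194030, rose in 245 AMA-7 and A15 and fell in 065 BP-8. In 065 BP-8 it had 3728 and 4170.1 FPKM on day 39, against 13232 and 7732 FPKM on day 27; the days were apart, and the d of -1.41 became -0.97 without replicate 1 of day 27. It had 3924 and 3960.2 FPKM on day 39, against 876 and 952 FPKM on day 27 in 245 AMA-7 (d of 2.11) and 6195 and 6596 FPKM on day 39, against 2752 and 2618 FPKM on day 27 in A15 (d of 1.25). In 219 30P its d was -0.85, short of the limit. The 3 genes named next, from other combinations, had lower levels than AGABI2DRAFT_194030. The gene AGABI2DRAFT_200564, rising in 219 30P and 065 BP-8, had 181 and 130.2 FPKM on day 39, against 23.00 and 21.3 FPKM on day 27 in 219 30P and 35.8 and 33.8 FPKM on day 39, against 75.1 and 77.4 FPKM on day 27 in 245 AMA-7. The gene AGABI2DRAFT_200333, rising in 245 AMA-7 and 065 BP-8, had 62.2 and 78.8 FPKM on day 39, against 12.04 and 18.04 FPKM on day 27 in 065 BP-8 and 12.7 and 14.1 FPKM on day 39, against 70.2 and 33.3 FPKM on day 27 in 219 30P. In AGABI2DRAFT_195496, rising in 219 30P and A15, 219 30P had 350.1 and 299.8 FPKM on day 39, against 33.5 and 36.8 FPKM on day 27 and 245 AMA-7 had 31.3 and 15.7 FPKM on day 39, against 117 and 51.6 FPKM on day 27. In 065 BP-8 the d of 1.12 of AGABI2DRAFT_200564 was 0.79 without replicate 1 of day 27 and 0.95 without replicate 2 of day 39, and in 219 30P that of -1.87 of AGABI2DRAFT_200333 was -1.25 without replicate 1 of day 27. In each of these 3 genes the days did not overlap in the strains just named. The d of -1.81 of AGABI2DRAFT_195496 in 245 AMA-7 was -1.10 without replicate 1 of day 27, and its d of 2.00 in A15 was 0.70 without replicate 2 of day 39.

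The laccase gene lcc12 (AGABI2DRAFT_184993) was the only opposed gene with a name, of 88 measured genes that carry one, 86 of which reached 10 FPKM in some group. Of all genes that reached 10 FPKM, 2.09% met the rule. In 065 BP-8 it had 27.6 and 30.3 FPKM on day 39, against 658 and 33.6 FPKM on day 27, a d of -3.54. Its fall rests on a single library: without replicate 1 of day 27 the d was -0.21, and without replicate 2 it was -4.46. It had 22.2 and 20.5 FPKM on day 39, against 6.25 and 7.46 FPKM on day 27 in 219 30P (d of 1.51) and 39.96 and 33.3 FPKM on day 39, against 9.25 and 7.81 FPKM on day 27 in 245 AMA-7 (d of 1.98), where the duplicates lay close together. In A15 the values were 25.3 and 24.5 FPKM on day 39, against 5.37 and 23.98 FPKM on day 27 (d of 0.72). The other 5 measured laccase genes did not meet the rule. Of these, lcc1 had d of -6.35 in 219 30P, -2.89 in 245 AMA-7, -4.31 in 065 BP-8 and 0.49 in A15, and lcc2 had -3.63, -1.64, -2.87 and 0.16 in the same order. In lcc3, lcc9 and lcc10 every d was above 0. How the authors' counting divided reads among related laccase genes is not known, so that each level alone is uncertain.

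No other list of named genes held an opposed gene apart from hspB. None of the 52 measured genes of oxidative phosphorylation met the rule, where 2.09% of all genes that reached 10 FPKM did. With so low a share, a list of this size or smaller can be empty without setting its genes apart. The nearest, NdufA13 of complex I, had a highest d of 0.56 in 245 AMA-7 and a lowest of -1.23 in 219 30P. None of the 7 two-component signalling genes, the 3 of alternative respiration, the 3 phenylpropanoid genes, the 2 catalases or the 2 of the methionine pathway met it either. The lectin gene abl, with a d of 4.94 in 065 BP-8, had a lowest d of -0.25 in 219 30P. These lists were written with earlier results of the same data known, and with product descriptions absent from the table they cover 88 of 9520 genes.

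Separation of the duplicates varied with the strain. The limits on d set the means of the days apart and so favour separation in these genes. The shares of all genes given beside them are at any size of change, and so are no like base. The libraries of the days did not overlap upwards in a rising strain and downwards in a falling strain in 147 of the 159 genes, where 33.3% of all genes that reached 10 FPKM were separated in both directions at any size of change. All 71 rises in 219 30P, 40 in 245 AMA-7 and 50 in 065 BP-8 were without overlap, as were 52 of 53 in A15, where 38.5%, 50.4%, 44.0% and 50.3% of all genes that reached 10 FPKM were apart upwards at any size. The falls were without overlap in 39 of 40 in 219 30P, 88 of 90 in 245 AMA-7, 26 of 37 in 065 BP-8 and 32 of 35 in A15, with 46.9%, 36.5%, 38.3% and 30.3% of all genes apart downwards. Of these 37, replicate 1 of day 27 was above replicate 2 in 30 and over 3-fold above it in 15, with a ratio of up to 22.8. Without replicate 1 of day 27, 19 of the 37 left the list, and the whole list had 137 genes; without replicate 2 it had 203. In the 50 genes rising in 065 BP-8 the same library was the lower duplicate in 44, and 6 of them left the list without it. Of the 10 genes rising in 219 30P and 245 AMA-7, 3 were separated in both directions. Over all strains, 81 of the 159 genes met the rule whichever single library was left out.

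**Figure D4:**
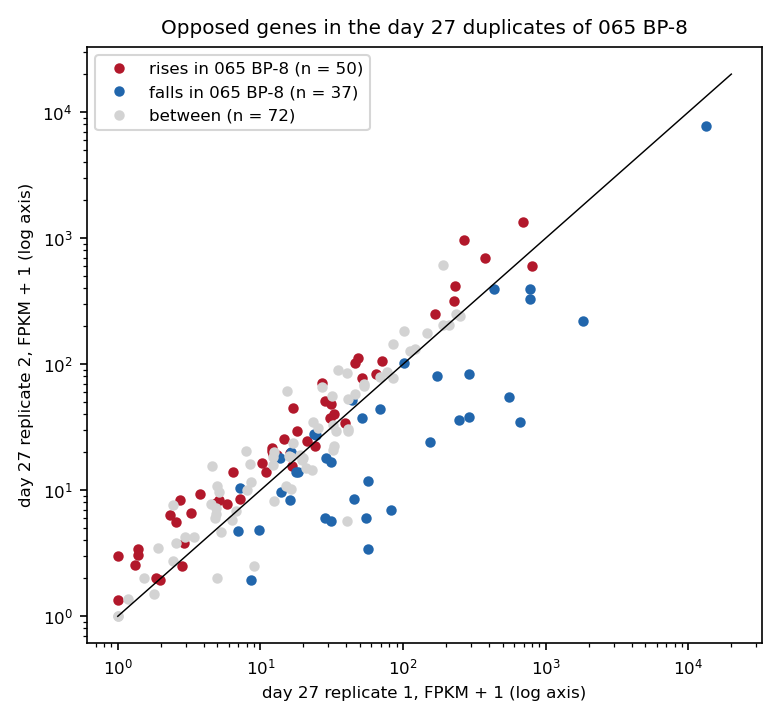
FPKM + 1 of the 159 genes in the 2 day 27 libraries of 065 BP-8, both on log axes with the line of equality. Of the 37 genes falling in this strain 30 lie on the side of replicate 1, and of the 50 rising genes 44 lie on the side of replicate 2.

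The spread between duplicates was larger in these genes than in most. The residual SD on the log2(FPKM + 1) scale had a median of 0.31, against 0.15 over the 8818 genes that averaged at least 1 FPKM, and it was above that overall median in 149 of the 159. The genes were also shorter: the median annotated length, introns included, was 1153 bases for the 158 with a reference entry and 1650 bases for all genes that reached 10 FPKM. Of the opposed genes 42.4% were shorter than 1000 bases, against 21.0%. Short genes hold fewer reads at the same FPKM, and the part of length in the changes was not tested. Levels were not low: the highest group mean of a gene had a median of 77.7 FPKM, against 58.0 FPKM for all genes that reached 10 FPKM, and was at least 100 FPKM in 72 genes, at least 1000 FPKM in 11 and below 20 FPKM in 20.

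Whether the strains also differed in level, averaged over both days, was a separate question, since the rule used the day differences and a minimum level in some group but not the average. It was tested with limma on log2(FPKM + 1) over 8818 genes, with p-values adjusted by the Benjamini-Hochberg method. Among 219 30P, 245 AMA-7 and 065 BP-8 the level of 136 of the 159 genes differed, where 69.8% of all genes tested did. Against A15, whose files are tables of their own so that strain and table cannot be told apart, 219 30P differed in 108 (54.4% of all genes tested), 245 AMA-7 in 99 (55.7%) and 065 BP-8 in 104 (47.0%), and these comparisons share the A15 libraries. Between the other strains, 245 AMA-7 differed from 219 30P in 107 (54.6%), and 065 BP-8 differed from 219 30P in 84 (45.0%) and from 245 AMA-7 in 107 (48.4%). The minimum level of the rule bears on these counts: 20 of the 159 genes reached 10 FPKM in a single strain, 2 of them in 219 30P, 6 in 245 AMA-7, 5 in 065 BP-8 and 7 in A15, and so were bound to be high there.

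The counts were therefore also taken over genes that reached 10 FPKM in each of the 4 strains, 102 of the opposed genes and 6331 in all, a choice made after seeing the data. Of the 102, 91 differed among 219 30P, 245 AMA-7 and 065 BP-8, with 70.7% of the 6331. Against A15, 219 30P differed in 67 (53.7%), higher in 32 and lower in 35 (25.4% and 28.3%). The strain 245 AMA-7 differed from A15 in 62 (55.8%), higher in 17 and lower in 45 (28.8% and 27.0%), and 065 BP-8 in 66 (46.2%), higher in 22 and lower in 44 (24.5% and 21.7%). More of these genes were thus lower than higher than A15 in 245 AMA-7 and 065 BP-8, whereas over the 6331 slightly more were higher than lower. The split over the 6331 was taken on the deposited values only. Over all genes tested, the share higher among those called in 245 AMA-7 against A15 moved with the scaling. It was 51.0% as deposited, 48.1% after median-ratio scaling and 56.2% after quantile normalization. Within all opposed genes it was 37.4%, 36.6% and 37.3%. For 065 BP-8 these shares were 49.3%, 50.7% and 56.4%, and 33.7%, 34.0% and 34.0%. Between the other strains, 245 AMA-7 differed from 219 30P in 68 (55.3%), higher in 21 and lower in 47 (30.2% and 25.2%). The strain 065 BP-8 differed from 219 30P in 57 (44.9%), higher in 18 and lower in 39 (25.7% and 19.3%), and from 245 AMA-7 in 70 (48.7%), higher in 37 and lower in 33 (25.0% and 23.8%).

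The smallest p-value for a level difference among 219 30P, 245 AMA-7 and 065 BP-8 belonged to AGABI2DRAFT_194809, which fell in 245 AMA-7 and rose in the other 3 strains. In 245 AMA-7 it had 87.3 and 112 FPKM on day 39, against 297 and 228 FPKM on day 27, and in 219 30P 4.87 and 7.52 FPKM on day 39, against 0.50 and 0.96 FPKM on day 27. In 065 BP-8 it had 11.2 and 11.5 FPKM on day 39, against 0.86 and 1.00 FPKM on day 27, and in A15 2.96 and 2.92 FPKM on day 39, against 0.62 and 0.67 FPKM on day 27. On both days 245 AMA-7 was above every library of the other strains, which stayed at or below 11.5 FPKM. The average level of 065 BP-8 differed from that of 245 AMA-7 by -5.05 ± 0.14 (log2, SE; limma adjusted p = 1.38e-10). In AGABI2DRAFT_114324, whose day changes crossed between 219 30P and 245 AMA-7, the level differed from that of A15 by -1.98 ± 0.11 in 219 30P (adjusted p = 4.69e-08) and by -2.09 ± 0.11 in 065 BP-8 (adjusted p = 2.67e-08). In 245 AMA-7 the difference from A15 was -0.16 ± 0.11 (adjusted p = 0.227), an average over opposite differences on the days. On day 39 245 AMA-7 had 13.3 and 14.0 FPKM, against 53.6 and 59.9 FPKM in A15. On day 27 it had 263 and 223 FPKM, against 77.7 and 75.3 FPKM in A15. The gene AGABI2DRAFT_176277 was higher in 245 AMA-7 than in 219 30P by 1.90 ± 0.13 (adjusted p = 2.51e-07), and both strains reached the minimum level. The gene AGABI2DRAFT_210144 reached it in 245 AMA-7 alone, so that its higher level there, with 9.41 and 10.6 FPKM on day 39, against 44.7 and 37.7 FPKM on day 27, follows from the rule and is given with no test. For AGABI2DRAFT_194809, AGABI2DRAFT_176277 and AGABI2DRAFT_114324 the adjusted p of the test among the 3 strains stayed between 2.6e-11 and 9.61e-07 over the alternatives run. These genes were picked for small p-values in that test. The minimum level was not reached by 219 30P in AGABI2DRAFT_194809 or by 065 BP-8 in AGABI2DRAFT_176277, so the rule bears on these differences in part. The d of AGABI2DRAFT_176277 in 065 BP-8, -1.01, was -0.69 without replicate 1 of day 27 and -0.90 without replicate 1 of day 39. In 219 30P the d of -1.03 of AGABI2DRAFT_210144 was -0.97 without replicate 1 of day 39 and -0.98 without replicate 2 of day 27. Its d of 1.03 in 065 BP-8 was 0.84 without replicate 1 of day 27 and 0.87 without replicate 2 of day 39.

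Of the 159 genes 20 lay beside another one in the reference gene order, which the rule did not use. Of 243 places next to an opposed gene that were filled by a gene reaching 10 FPKM, 20 held another opposed gene (8.23%), against 2.09% of all genes that reached 10 FPKM, a difference given with no test. They formed 10 pairs and no longer run. The annotated spans overlapped in 0 of the 10 pairs, and reads shared between similar neighbours were not examined. In 4 pairs both genes rose in the same strains, and in 1 pair the genes themselves were opposed. Several pairs hung on single libraries. Without replicate 1 of 065 BP-8 on day 27, AGABI2DRAFT_184993, AGABI2DRAFT_192247 and AGABI2DRAFT_138510 left the list. Without replicate 1 of 245 AMA-7 on day 27, AGABI2DRAFT_121415, AGABI2DRAFT_180525, AGABI2DRAFT_132801 and AGABI2DRAFT_114833 did, and without replicate 2 of A15 on day 27 AGABI2DRAFT_119786 did. The share of 8.23% was not taken again without them.

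The pair AGABI2DRAFT_132801 and AGABI2DRAFT_189391 had close values in most libraries, with 23.4 and 49.2 FPKM in replicate 2 of A15 on day 39 as the widest gap. In 065 BP-8 the first had 131 and 96.8 FPKM on day 39, against 29.7 and 36.4 FPKM on day 27, and the second 122 and 105 FPKM on day 39, against 31.9 and 39.2 FPKM on day 27. In 245 AMA-7 the first had 12.9 and 25.2 FPKM on day 39, against 59.4 and 36.9 FPKM on day 27, and the second 14.8 and 19.6 FPKM on day 39, against 56.5 and 47.1 FPKM on day 27. Both rose in 219 30P and 065 BP-8 and fell in 245 AMA-7; the d of AGABI2DRAFT_132801 in 245 AMA-7 was -0.92 without replicate 1 of day 27 and -0.91 without replicate 1 of day 39. Its d of 1.10 in 219 30P was 0.95 and 0.98 without replicate 1 of day 39 and of day 27. The pair AGABI2DRAFT_192467 and AGABI2DRAFT_192468 rose in 219 30P and fell in 245 AMA-7. The first had 41.6 and 38.7 FPKM on day 39, against 12.1 and 11.8 FPKM on day 27 in 219 30P and 17.8 and 13.01 FPKM on day 39, against 38.5 and 47.9 FPKM on day 27 in 245 AMA-7. The second had 52.2 and 47.5 FPKM on day 39, against 19.7 and 21.3 FPKM on day 27 in 219 30P and 26.9 and 26.1 FPKM on day 39, against 58.9 and 68.5 FPKM on day 27 in 245 AMA-7. The gene with the next identifier, AGABI2DRAFT_192469, missed the rule narrowly, with d of 0.9985 in 219 30P and -1.37 in 245 AMA-7. Its place in the gene order is not given here.

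The pair AGABI2DRAFT_121415 and AGABI2DRAFT_180525 was listed at 0 in all 4 libraries of 065 BP-8, and no other opposed gene was at 0 throughout a strain. In 219 30P they had 19.5 and 17.6 FPKM on day 39, against 6.53 and 7.32 FPKM on day 27 and 38.8 and 32.5 FPKM on day 39, against 7.70 and 7.74 FPKM on day 27. In 245 AMA-7 both day 27 duplicates lay above day 39, but without replicate 1 of day 27 the d became -0.65 in AGABI2DRAFT_121415 and -0.70 in AGABI2DRAFT_180525. The fourth pair of like genes, AGABI2DRAFT_115967 and AGABI2DRAFT_191092, rose in 065 BP-8, with 8.58 and 8.06 FPKM on day 39, against 0.38 and 2.04 FPKM on day 27 and 117 and 132 FPKM on day 39, against 27.2 and 50.5 FPKM on day 27, and fell in 245 AMA-7 with d of -1.91 and -2.52. In A15 the d of AGABI2DRAFT_115967, -1.10, was -0.24 without replicate 2 of day 27.

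The pair that was opposed within itself was AGABI2DRAFT_190809 and AGABI2DRAFT_190812. In 219 30P AGABI2DRAFT_190809 had 1227 and 1314 FPKM on day 39, against 458 and 543 FPKM on day 27, and AGABI2DRAFT_190812 had 19.9 and 19.9 FPKM on day 39, against 44.8 and 43.7 FPKM on day 27. In 245 AMA-7 AGABI2DRAFT_190809 had 835 and 846 FPKM on day 39, against 1781 and 1852 FPKM on day 27, and AGABI2DRAFT_190812 had 80.8 and 69.5 FPKM on day 39, against 29.1 and 25.6 FPKM on day 27. Both rose in 065 BP-8, with d of 1.18 and 1.77, and none of these duplicates overlapped between the days. The d of AGABI2DRAFT_190809 in 065 BP-8 was 0.80 without replicate 1 of day 27. The neighbour of lcc12, AGABI2DRAFT_192247, had 8.43 and 6.55 FPKM on day 39, against 55.5 and 2.44 FPKM on day 27 in 065 BP-8, high in the same single library as lcc12. Without that library its d there was 1.30 in place of -1.82, and all of its d values were above 0. In 065 BP-8 the pair AGABI2DRAFT_138510 and AGABI2DRAFT_194910 had 56.2 and 83.3 FPKM on day 39, against 291 and 83.3 FPKM on day 27 and 5.84 and 5.11 FPKM on day 39, against 17.3 and 13.1 FPKM on day 27. The d of -1.41 of the first was -0.25 without replicate 1 of day 27, and both genes were higher on day 39 in A15, with d of 1.43 and 1.62. In 219 30P the d of -1.11 of AGABI2DRAFT_194910 was -0.89 without replicate 1 of day 39. The pair AGABI2DRAFT_194000 and AGABI2DRAFT_119786 rose in 245 AMA-7 with d of 1.87 and 2.61 and stood at a few FPKM in A15. There AGABI2DRAFT_194000 had 2.28 and 0 FPKM on day 39, against 3.21 and 11.7 FPKM on day 27 and AGABI2DRAFT_119786 had 2.21 and 1.56 FPKM on day 39, against 2.07 and 9.36 FPKM on day 27, and without replicate 2 of day 27 their d of -1.98 and -1.22 became -0.98 and -0.09. In 065 BP-8 the d of -1.15 of AGABI2DRAFT_194000 was 0.51 without replicate 1 of day 27. In the pair AGABI2DRAFT_178148 and AGABI2DRAFT_56108 the first had 9.17 and 10.7 FPKM on day 39, against 148 and 148 FPKM on day 27 in 219 30P and 52.01 and 45.7 FPKM on day 39, against 15.03 and 18.9 FPKM on day 27 in 065 BP-8. The second had 5.34 and 5.68 FPKM on day 39, against 22.8 and 15.2 FPKM on day 27 in 219 30P and 30.5 and 30.6 FPKM on day 39, against 6.23 and 7.46 FPKM on day 27 in 065 BP-8. Both fell in 219 30P and rose in 065 BP-8, whereas in 245 AMA-7 d was -0.80 in the first and 2.08 in the second. In A15 these values were -2.23 and -0.66. In the last pair AGABI2DRAFT_190212 had 829.6 and 777 FPKM on day 39, against 202 and 204 FPKM on day 27 in 219 30P, and AGABI2DRAFT_114833 had 295 and 219 FPKM on day 39, against 3.65 and 7.90 FPKM on day 27. In 245 AMA-7 AGABI2DRAFT_114833 had 9.64 and 8.68 FPKM on day 39, against 39.8 and 4.72 FPKM on day 27, so that its d of -1.19 became 0.83 without replicate 1 of day 27. In A15 its d of 3.24 was 1.47 without replicate 2 of day 39, while the d of AGABI2DRAFT_190212 was -0.91. The signs of d in this pair matched in 2 of the 4 strains.

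**Figure D5:**
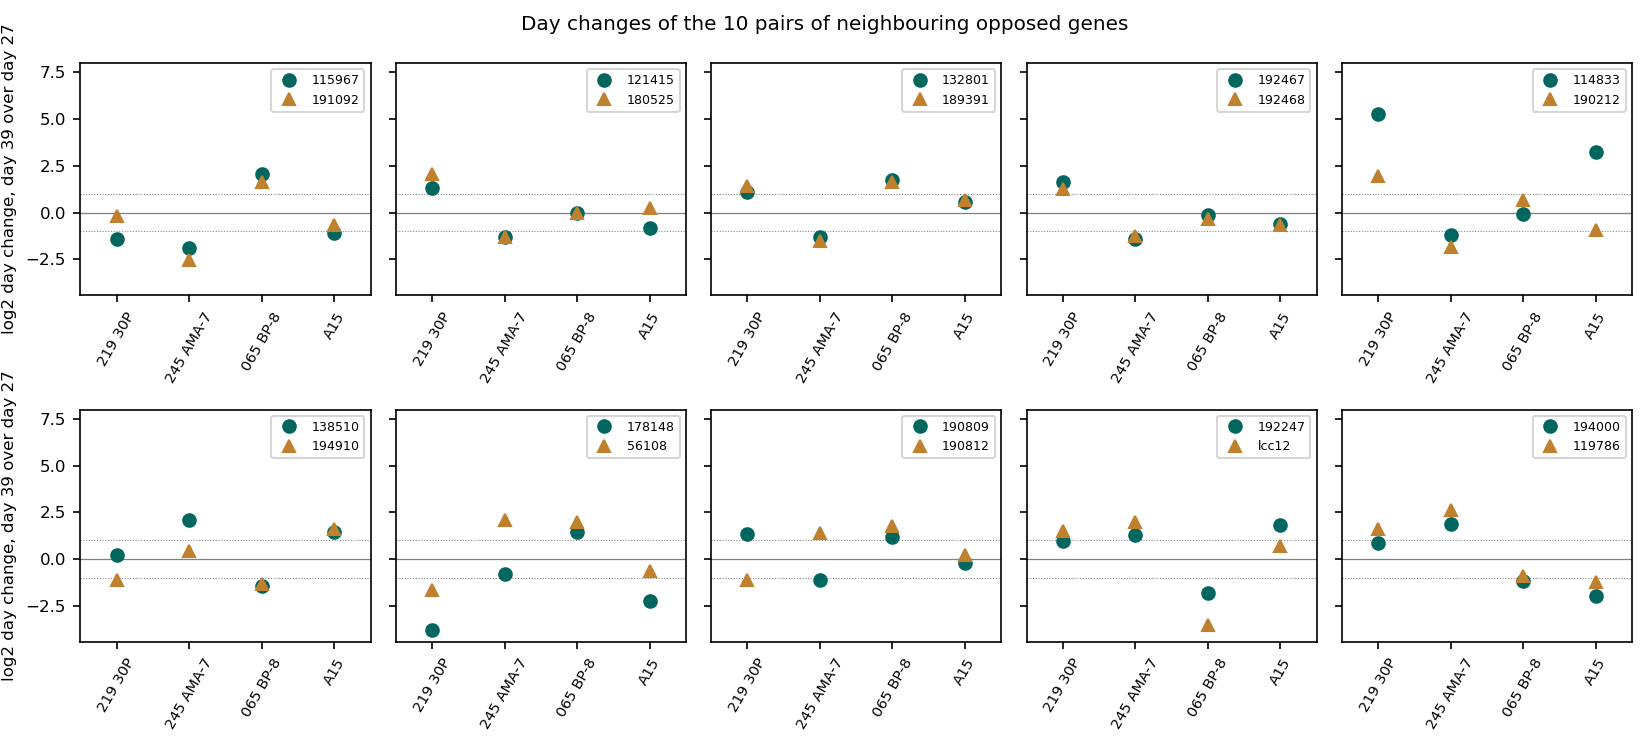
Log2 day change (day 39 over day 27) of both genes of the 10 neighbouring pairs in each strain, with dotted lines at 1 and -1. The first 4 panels hold the pairs that rise in the same strains, and the panel of 190809 and 190812 shows the genes on opposite sides of 0 in 219 30P, 245 AMA-7 and A15.

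The limits of the rule cut through a continuous range. Just inside were AGABI2DRAFT_224504 with d of 1.0005 in 219 30P, AGABI2DRAFT_138136 with 1.0006 in 065 BP-8 and AGABI2DRAFT_123396 with 1.002 in A15, each of which left the list without some single library of the strain named. After median-ratio scaling 4 of the named opposed genes missed the limit. Among them were AGABI2DRAFT_138136 and AGABI2DRAFT_123396, with 0.93 and 0.77, and AGABI2DRAFT_210144 with 0.96. Just outside were AGABI2DRAFT_192469 and AGABI2DRAFT_194081, both with a highest d of 0.9985, and AGABI2DRAFT_202707, with a lowest d of -0.9959.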

How the data were processed

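RNA from mycelium-grown compost was sequenced from 16 libraries, 2 for each of 8 groups of strain and day, grouped by the sample titles. Per the submitters' processing notes, BWA, Bowtie and RSEM were used; which step each was used for, in which version and on which genome build, is not given in the sources used here. As FPKM, a unit inferred from the numbers, the deposited values were read. The A15 files list 9520 genes and the others 10438; the 918 others entered no comparison. Of 9520 identifiers 9457 matched locus tags of the assembly Agabi_varbisH97_2, used for names, lengths and gene order only, with scaffold ends inferred from where the order of starts resets.

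The members, lists and tests were chosen with earlier results of these data known. The rule used a pseudocount of 1. Levels averaged over both days were compared by limma-trend (limma version 3.58.1, R version 4.3.3; 1 mean per group, 8 residual degrees of freedom, adjusted p under 0.05), a script tested on simulated data. Python 3.11.15, pandas 2.3.3, numpy 2.4.6 and matplotlib 3.10.9 did the rest. Alternatives changed the pseudocount, filter, scaling, threshold, block and libraries. Named genes were the widest 3 of each combination of rising strains (the widest 1 in small ones) without overlap between days, the 3 most abundant, those at the threshold, neighbouring pairs, the 4 smallest p-values for level and any with a symbol; the text describes part of them. The labels tie no replicate numbers together, and same-numbered libraries did not deviate together (28 group pairs, correlations of -0.27 to 0.17). Planned searches of promoters and proteins were not run, because no sequences were used here.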

Additional observations from a re-analysis of the deposited data

Results flagged for a closer look

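In 147 of the 159 genes the duplicates of the days were apart upwards in a rising strain and downwards in a falling strain, so that every library of a strain moved one way and every library of another strain the opposite way. The difference was not tested, because the genes were chosen for it. At any size of change, the days were apart in both directions in 33.3% of all genes that reached 10 FPKM.

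Among the 918 genes outside the A15 files, 8 reached a group mean of 10 FPKM in another strain, and 0 of them met the rule among the 3 strains. In AGABI2DRAFT_123399, 065 BP-8 had 7.78 and 5.37 FPKM on day 39, against 53.4 and 72.6 FPKM on day 27, and the gene was listed at 0 in all 8 libraries of 219 30P and 245 AMA-7. In AGABI2DRAFT_58707, 245 AMA-7 had 76.1 and 76.8 FPKM on day 39, against 29.0 and 30.1 FPKM on day 27, while no library of 219 30P or 065 BP-8 was above 0.34 FPKM. The neighbours in number, AGABI2DRAFT_120388 and AGABI2DRAFT_120389, had d of 2.09 and 2.30 in 245 AMA-7 and 0.94 and 1.08 in 065 BP-8, and stood at or below 0.11 FPKM in 219 30P.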

How the results depend on the processing

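The number of opposed genes depended on the settings of the rule. It was 159 as deposited, 180 with a pseudocount of 0.5, 97 with a pseudocount of 5, 181 without a limit on the group mean, 139 with a limit of 20 FPKM, 181 after median-ratio scaling, 168 after quantile normalization and 38 with a threshold of 1.5 on d. The libraries numbered 1 alone gave 259 genes and those numbered 2 alone gave 131. Of the 159, 97 were kept with the pseudocount of 5 (87 with the same rising strains), 38 with the threshold of 1.5 (28 with the same rising strains), 140 after median-ratio scaling and 134 after quantile normalization. The libraries numbered 2 kept 93, 79 of them with the same rising strains. Leaving out 1 library gave 137 to 203 genes, of which 121 to 153 had the same rising strains. The lowest and highest counts came without replicate 1 and without replicate 2 of 065 BP-8 on day 27. The smaller of the highest rise and the deepest fall turned below 0 in AGABI2DRAFT_192247 without replicate 1 of 065 BP-8 on day 27 (leave-outs of -0.98 to 1.83) and with the libraries numbered 2 (-0.97). It did so in AGABI2DRAFT_114833 with the libraries numbered 2 (-0.53).

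The counts of opposed genes called for level stayed within 1.5 times of the values given over the 159 genes, under every alternative run except the limit to genes reaching 10 FPKM in every strain, which leaves 102 of them and was added after seeing the data. With that limit they were 91 among 219 30P, 245 AMA-7 and 065 BP-8, 67, 62 and 66 for 219 30P, 245 AMA-7 and 065 BP-8 against A15, 68 and 57 for 245 AMA-7 and 065 BP-8 against 219 30P, and 70 for 065 BP-8 against 245 AMA-7. The test among 219 30P, 245 AMA-7 and 065 BP-8 called 133 to 137 over the other settings and 125 to 146 over the leave-outs. Leaving out 1 library gave 95 to 120 for 219 30P against A15, 88 to 110 for 245 AMA-7 against A15 and 92 to 115 for 065 BP-8 against A15. It gave 96 to 120 for 245 AMA-7 against 219 30P, 72 to 100 for 065 BP-8 against 219 30P and 90 to 111 for 065 BP-8 against 245 AMA-7. With the replicate number as a block the calls numbered 136 among the 3 strains, 109, 99 and 103 against A15, and 106, 84 and 106 between the other strains. Counts per gene are not known, so no counting intervals are given; 2 libraries per group set the precision.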
